A study of Mus musculus with 6 samples.

Results

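The genes described here are 9 known targets of androgen signalling: Tmprss2, Steap4, Mme, Nedd4l, Sgk1, Tsc22d3, Ndrg1, Abcc4 and Fkbp5. They were taken by name from 21887 protein-coding mouse genes. For each gene, the regions used were those of the deposited chromatin list whose centre lay inside the gene's span or within 100 kb of it, 21 of the 6502 regions in the list.

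The list comes from ATAC-seq, in which a transposase cuts open chromatin, on basal stem cells sorted from mouse prostate. There were 3 naive and 3 inflamed libraries. The sorted cells were negative for CD45 and CD31, markers of leukocytes and endothelium, and positive for Sca-1 and CD49f, and they were not cultured. The inflamed group came from POET3 mice, whose prostate expresses ovalbumin, 7 days after they received activated OT-1 splenocytes. The naive group is labelled control. Its genotype label is WT, although the extraction protocol names POET3 mice for both groups, so the genotype label and inflammation cannot be told apart. No source used here gives the animals' ages or says whether a library came from 1 animal.

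The list gives a chromosome, a start and an end for each region. Its deposited name contains "diff", and edgeR is among the tools in the submitters' processing notes, so it was read as a list of regions that differ between naive and inflamed cells. It holds no signal, direction, p-value or value per library. Nothing below says that a gene was more or less open in inflamed cells, and no replicate error or depth can be given. Regions come in 2 main widths, 451 and 143 bases, and the meaning of the widths is not given in the sources used here.

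The androgen receptor is a steroid-activated transcription factor. On DNA it binds as a dimer to pairs of short inverted arms, an arrangement that the glucocorticoid receptor also recognises, and many of its sites lie far from gene starts. In the prostate, androgens drive the secretory programme of luminal cells, while basal cells carry less receptor and include cells that can renew the epithelium.

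Of the 9 genes, 8 had at least 1 listed region under the 100 kb rule, and Fkbp5 had none. Across all protein-coding genes the share was 42.7%, and it was 52.7% among genes with a span of at least 21.7 kb, that of the shortest of the 9. All 9 genes are longer than the median protein-coding gene, 17.2 kb, and the median span of the 9 was 88.5 kb. A longer span gives more room for regions, and no share was computed for genes matched to these lengths. The 9 genes were proposed with results from this list known, so the count is a description and was not tested. The median number of regions was 2 over the 9 genes and 0 over all protein-coding genes, and the means were 2.33 and 0.727. Per megabase searched there were 7.32 regions around the 9 genes and 2.93 around all protein-coding genes, where a region near several genes counts for each.

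**Figure D1:**
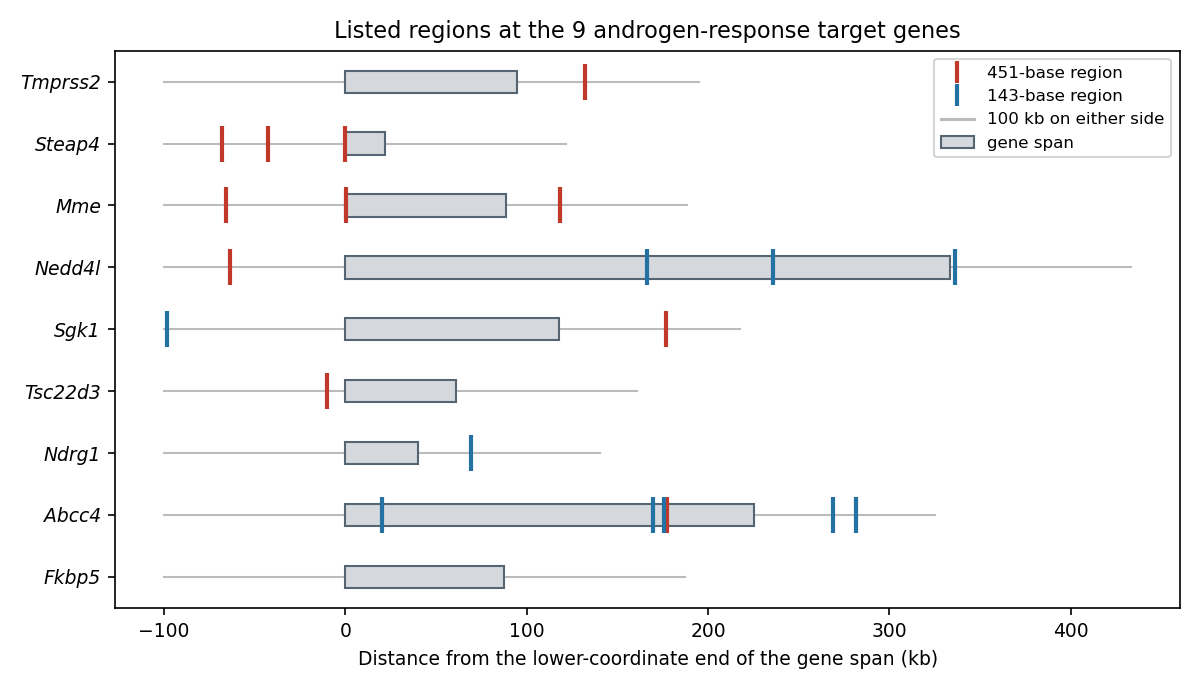
Position of listed regions at the 9 genes. The horizontal axis is the distance in kb from the lower-coordinate end of each gene span (grey box), grey lines reach 100 kb to either side, and ticks mark region centres, red for 451 bases and blue for 143 bases. The ticks of Steap4 and Mme are all red, those of Abcc4 and Nedd4l mostly blue, and Fkbp5 has none.

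The genes differed in how many regions they had and of which width. Abcc4 had 6 regions, Nedd4l 4, Steap4 and Mme 3 each, Sgk1 2, and Tmprss2, Tsc22d3 and Ndrg1 a single region each. At least 6 regions were found at 0.402% of all protein-coding genes, at least 4 at 2.82% and at least 3 at 7.47%. These shares are over genes of all lengths, while Abcc4 spans 225 kb and Nedd4l 333 kb. In all, 11 of the 21 regions were 451 bases wide (52.4%), close to the share in the whole list (50.6%). By gene, Steap4 and Mme had 451-base regions only, and Nedd4l, Sgk1 and Abcc4 had both widths. The single region of Tmprss2 and that of Tsc22d3 were 451 bases wide, and that of Ndrg1 143 bases. A gene with a single region cannot show both widths. Whether the widths were spread unevenly over the genes was not tested. Inside gene spans 5 of 7 regions were 143 bases wide, and outside them 5 of 14. Those inside were all in Abcc4 and Nedd4l, and the same split over the whole list was not computed.

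**Figure D2:**
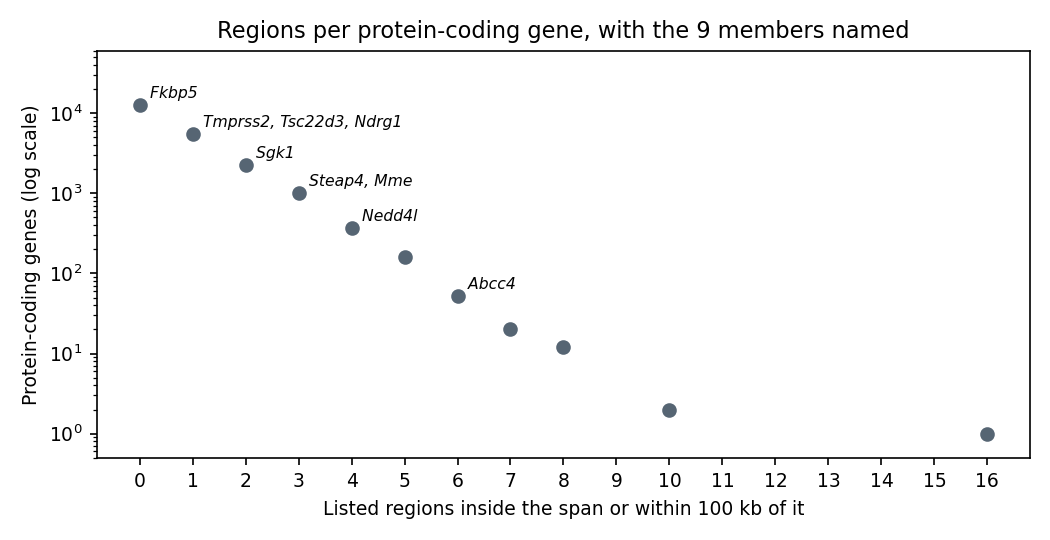
Number of protein-coding genes (vertical axis, log scale) with each number of listed regions inside the span or within 100 kb (horizontal axis). The 9 genes are named at their own count, from 0 for Fkbp5 to 6 for Abcc4, and the highest count of any gene was 16.

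Steap4 and Mme were the only genes of the 9 with a region at an annotated start site, among the 7 whose start sites are in the RefSeq promoter table (GRCm38.p6). These 7 genes have 17 promoter windows, each running from 250 bases before a start site to 50 bases from it on. Of the 17 windows, 3 shared bases with a listed region, against 2.21% of all 32851 windows. Counted by gene that was 2 of 7, against 3.19% of the protein-coding genes in the table.

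The sequences before these start sites are shown because the listed regions cover them, beside an earlier Mme start that no region covers. Capitals mark a match to a motif that was searched, here an NF-kB-like palindrome in Steap4.

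Steap4, chr5:7960222-7960471, plus strand, inside the region: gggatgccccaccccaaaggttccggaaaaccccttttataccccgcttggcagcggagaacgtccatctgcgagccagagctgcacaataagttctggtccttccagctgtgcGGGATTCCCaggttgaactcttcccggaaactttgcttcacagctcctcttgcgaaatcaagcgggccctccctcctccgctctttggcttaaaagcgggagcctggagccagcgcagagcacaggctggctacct

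Mme, the second start, chr3:63295622-63295871, plus strand, inside the region: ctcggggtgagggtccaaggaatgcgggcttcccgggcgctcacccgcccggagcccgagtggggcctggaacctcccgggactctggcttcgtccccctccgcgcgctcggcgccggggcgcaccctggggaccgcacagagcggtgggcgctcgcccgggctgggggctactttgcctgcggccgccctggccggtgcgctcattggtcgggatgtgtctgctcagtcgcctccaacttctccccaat

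Mme, the first start, chr3:63294961-63295210, plus strand, outside the region: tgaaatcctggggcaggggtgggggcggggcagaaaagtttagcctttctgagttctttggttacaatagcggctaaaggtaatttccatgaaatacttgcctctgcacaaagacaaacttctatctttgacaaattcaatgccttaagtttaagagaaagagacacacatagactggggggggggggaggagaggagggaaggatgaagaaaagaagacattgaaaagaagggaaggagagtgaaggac

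Steap4 encodes a metalloreductase that reduces iron and copper and is known as a gene induced by TNF. The gene (NCBI gene 117167) spans chr5:7960472-7982213. Its first region, chr5:7960217-7960667, is 451 bases wide and centred 0.03 kb before the start site, so that 255 of its bases lie before the start and 196 from it on. The same region holds the start site of Gm30835, a neighbouring RefSeq gene on the opposite strand that starts 80 bases away, so the region cannot be given to Steap4 alone. The other Steap4 regions, also of 451 bases, lay upstream at chr5:7917781-7918231 and chr5:7892360-7892810, 42.5 and 67.9 kb from the start. No other protein-coding gene lay within 100 kb of either. The next protein-coding gene, Sri, was 85.6 kb from the region at the start site.

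The Steap4 window held a single match to the palindrome GGGANTCCC, 136 bases before the start and inside the listed region. This motif, which resembles binding sites of NF-kB, was chosen after the sequence was seen, and 0.767% of all promoter windows hold it. No match to the androgen response element, to a single arm of it, to the forkhead motif, to AP-1 or to the p63 motif was found in this window.

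Mme encodes neprilysin, or CD10, a cell-surface zinc peptidase that cleaves small peptides. The gene (NCBI gene 17380) spans chr3:63295211-63383713 and has 3 start sites in the table. The region chr3:63295614-63296064 is centred 0.033 kb before the second of these and 0.628 kb after the first. It covers all 300 bases of the window of the second start and 220 bases of that of the third, and none of that of the first. The windows differ in composition. That of the first start has a GC content of 46.0% with 4 CpG dinucleotides, that of the second 73.0% with 32, and that of the third 72.3% with 29. The other Mme regions, also of 451 bases, lay 65.9 kb before the span at chr3:63229124-63229574 and 29.8 kb after it at chr3:63413276-63413726. Mme was the nearest protein-coding gene of all 3 regions.

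A match to the AP-1 motif TGANTCA lay within the same Mme region, 8 bases after the second start and 215 bases before the third. AP-1 is the Fos and Jun family of factors. The match is shown in capitals in the 30 bases around it, and 7.81% of all promoter windows hold this motif on either strand.

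Mme, chr3:63295869-63295898, plus strand, inside the region: aatcccactggTGAGTCAccggagagcgaa

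**Figure D3:**
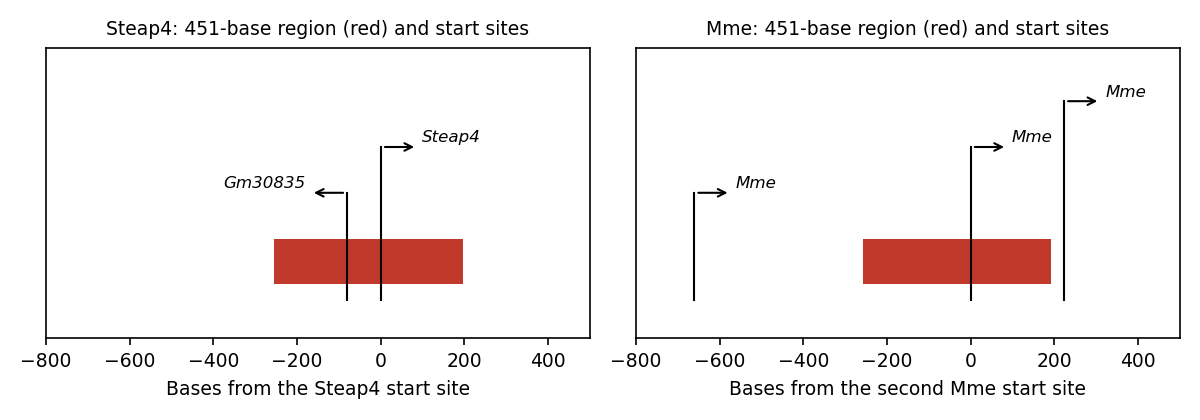
The 451-base regions at the start sites of Steap4 (left) and Mme (right). The horizontal axes give bases from the Steap4 start and from the second Mme start, red bars are the listed regions, and arrows mark start sites and their direction. The Steap4 region holds the starts of Steap4 and Gm30835, while the Mme region holds the second of 3 Mme starts.

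Abcc4 encodes MRP4, a membrane pump that exports cyclic nucleotides, prostaglandins and drugs. The gene (NCBI gene 239273) spans chr14:118482692-118707856, 225 kb on the minus strand, and held 4 of its 6 regions inside the span. Regions inside the span were found at 10.2% of all protein-coding genes, of any length, and at 3 of the 9 genes here, Abcc4, Nedd4l and Mme. In Abcc4, 3 of the regions formed a cluster of 8.12 kb between outer centres: chr14:118652085-118652227 and chr14:118658487-118658629 of 143 bases, and chr14:118660054-118660504 of 451 bases. The gap between the last of these and its neighbour was 1.42 kb, the closest spacing among regions of the 9 genes. The cluster lay 16.7 to 24.8 kb downstream of the nearer of the 2 Abcc4 start sites in the table. The remaining inner region, chr14:118502768-118502910, was 20.1 kb inside the other end of the gene and 174 kb from that start.

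The outer Abcc4 regions, chr14:118751352-118751494 and chr14:118764091-118764233, were 143 bases wide and lay 43.6 and 56.3 kb above the span, upstream of the gene. Both were nearer to Cldn10, a claudin gene of tight junctions, at 36.4 and 23.7 kb. The first of them also lay inside the long noncoding RNA gene Gm46484. Neither Abcc4 promoter window was covered by a region, although that of the start farther upstream, with a GC content of 72.7% and 41 CpG dinucleotides, was the richest in CpG of the 17 windows.

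Nedd4l and Sgk1 act in the same route. Nedd4l encodes a ubiquitin ligase that removes sodium channels from the cell surface, and Sgk1 encodes a kinase that phosphorylates and restrains it. Nedd4l (NCBI gene 83814) spans 333 kb, chr18:64884480-65217826. It had 3 regions of 143 bases, at 49.9% and 70.8% of the way along the span (chr18:65050912-65051054 and chr18:65120390-65120532) and 2.97 kb above its upper end (chr18:65220729-65220871). A region of 451 bases lay 63.6 kb below its lower end (chr18:64820618-64821068). For all 4, Nedd4l was the nearest protein-coding gene.

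Sgk1 (NCBI gene 20393) spans chr10:21882184-21999903 and had no region inside. A 143-base region, chr10:21783842-21783984, lay 98.3 kb upstream of the span, just within the 100 kb limit. Sgk1 has 6 start sites in the RefSeq promoter table. The 98.3 kb is from the first of them, at 21882184, and the others lie farther from that region, at 21978672 to 21994666. A 451-base region, chr10:22058530-22058980, lay 58.9 kb beyond the other end of the span. That region covered all 300 bases of the promoter window of another gene, Gm34267, and 3 further protein-coding genes lay within 100 kb of it, the nearest being 4930444G20Rik at 7.55 kb. With regions given to the nearest protein-coding gene only, Sgk1 kept 1. In that count 8 of the 9 genes again had a region, against 16.9% of all protein-coding genes.

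Although no listed region lay at an Sgk1 start, an Sgk1 promoter window held an exact androgen response element. The element searched was AGAACA and TGTTCT separated by 3 bases, a palindrome, so that both strands are searched together. Exact matches were found in 3 of the 32851 promoter windows (0.00913%), those of Sgk1, Gm35041 and Acnat2. The match in Sgk1 lay at chr10:21993701-21993715, 189 bases before the start site at 21993890, and the nearest listed region was centred 64.9 kb from that start. It is shown because it was the only element with fewer than 2 mismatches in the windows of the 7 genes. A single arm outside the element, 242 bases before that start, is also in capitals. The other arms in capitals are those of the element itself.

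Sgk1, chr10:21993640-21993889, plus strand, outside any region, with the element and further single arms in capitals: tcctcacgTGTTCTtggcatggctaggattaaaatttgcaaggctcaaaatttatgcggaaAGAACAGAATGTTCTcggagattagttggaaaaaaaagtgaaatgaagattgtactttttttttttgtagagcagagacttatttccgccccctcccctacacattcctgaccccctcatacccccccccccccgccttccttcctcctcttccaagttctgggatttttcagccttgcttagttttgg

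With up to 2 mismatches allowed in the arms, 2 of the 17 windows held the element, both of Sgk1, against 1.84% of all windows. A single arm, TGTTCT on either strand, was found in 5 of the 17 windows, of Sgk1, Abcc4 and Tsc22d3, against 19.0% of all windows. The arms of the exact element are counted among these. The forkhead motif TGTTTAC (3.65% of all windows) and a p63 motif of a pair of CATG blocks 6 bases apart (0.712%) were in none of the 17. None of the element or arm matches lay in a listed region, but only 3 of the 17 windows shared bases with one. Sequence was not at hand for most of the 21 regions, so these were not searched and nothing is known here of their elements. These windows span only the bases beside start sites, and a match of letters does not show binding.

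**Figure D4:**
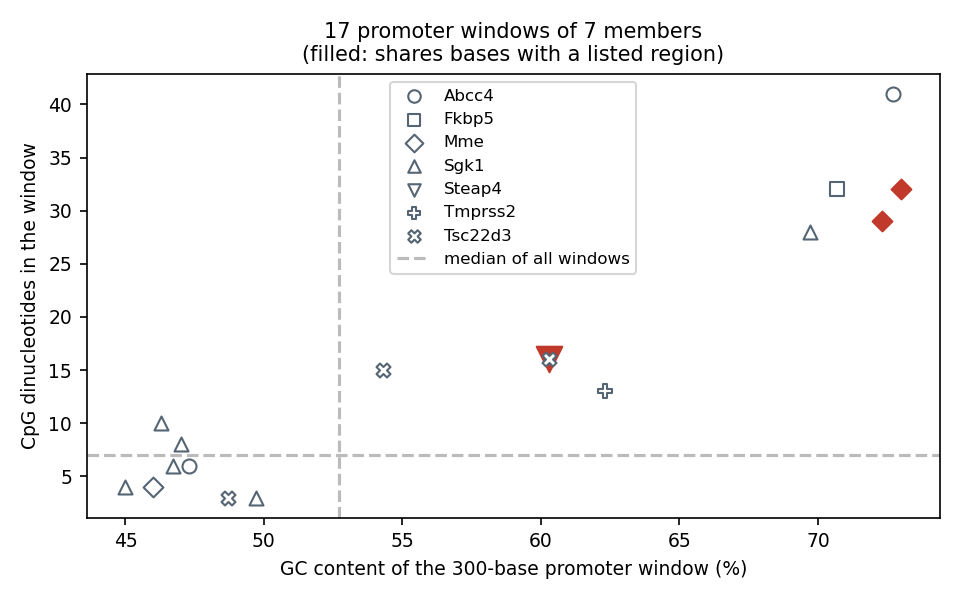
GC content (horizontal axis, percent) and number of CpG dinucleotides (vertical axis) of the 17 promoter windows of 7 genes. Filled symbols share bases with a listed region, open ones do not, and dashed lines are the medians of all 32851 windows, 52.7% and 7. The filled windows, of Mme and Steap4, lie at 60.3% to 73.0% GC, where open windows of Abcc4, Fkbp5, Sgk1, Tmprss2 and Tsc22d3 also lie.

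Across all windows that shared bases with a region, the median GC content was 62.3% and the median number of CpG dinucleotides 22, against 52.7% and 7 over all windows. The covered windows of Steap4 (60.3% and 16 CpG) and Mme were on the same side of the overall medians. Uncovered windows of Fkbp5 (70.7% and 32 CpG), Abcc4 and Sgk1 were as rich in GC, so composition did not separate covered from uncovered windows among these genes.

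Tmprss2 encodes a membrane serine protease whose androgen-driven promoter is fused to ERG in many human prostate tumours. The gene (NCBI gene 50528) spans chr16:97564682-97659541 on the minus strand. Its region, chr16:97696763-97697213, is 451 bases wide and lay 37.4 kb above the span and 85.8 kb upstream of the start site in the table. Ripk4, a kinase gene of epithelial differentiation, was at 44.9 kb on the other side, so the region lies between the genes at similar distances.

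Tsc22d3 encodes GILZ, a glucocorticoid-induced leucine zipper protein that restrains NF-kB and AP-1. The gene (NCBI gene 14605) spans chrX:140539528-140600522 on the minus strand. A 451-base region, chrX:140529099-140529549, lay 10.2 kb beyond its lower end and 13.3 kb downstream of the nearest of its 3 start sites, inside the long noncoding RNA gene Gm39538. Ndrg1 encodes a protein of the stress and hypoxia response that is tied to epithelial differentiation. This gene (NCBI gene 17988) spans chr15:66929318-66969641, and its 143-base region, chr15:66998549-66998691, lay 29.0 kb above the span, inside the long noncoding RNA gene Gm2895.

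Fkbp5 encodes FKBP51, a co-chaperone of Hsp90 that modulates steroid receptors and is widely used as a readout of receptor activity. The gene (NCBI gene 14229) spans chr17:28398753-28486149. The closest region, of 143 bases at chr17:28257012-28257154, was 142 kb away, inside Ppard. Absence from the list does not show that its chromatin was closed or unchanged. The list holds no signal, and its threshold is not given beyond what its deposited name abbreviates. The regions nearest to the 100 kb limit were that of Sgk1 inside it at 98.3 kb, and outside it those at 142 kb from Fkbp5, 143 kb from Sgk1 and 147 kb from Ndrg1.

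Most regions given to these genes lay outside the gene spans, where the rule searched 100 kb on either side. Of the 21, 7 lay inside spans, 2 within 10 kb outside, 6 between 10 and 50 kb and 6 between 50 and 100 kb. For 18 the androgen target was the nearest protein-coding gene, and the other 3 were the outer pair at Abcc4 and the upper region of Sgk1. No other protein-coding gene lay within 100 kb of 12 of the 21. The same counts over the whole list were not computed, so those given here are a description only and were not tested. The table gives spans and start sites without exons, so regions inside spans were not assigned to exons or introns.

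A wider list of 92 other androgen-response genes, written from general knowledge, was counted in the same way. It was chosen with earlier results of these data known, so its counts are a description and were not tested. Of these, 57 had a region (62.0%) and 35 had none, beside 42.7% of all protein-coding genes and 52.7% of those with the longer spans. The median span in the list was 36.5 kb. A region inside the span was found in 25 of the 92 (27.2%), beside 10.2% of all genes, whose median span was shorter, 17.2 kb. The median number of regions was 1 and the mean 1.17.

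In this list, 6 genes had a region centred within 1 kb of an end of the span. The same share over all protein-coding genes was not computed, so this count is a description only. Among the 6 were the following. Mak, a kinase gene known as androgen-inducible in prostate cells, had 3 regions of 451 bases, the nearest 0.067 kb from an end. Spcs3, a signal peptidase subunit gene, had 1 at 0.123 kb, also of 451 bases. Iqgap2, a scaffold protein gene, had 7 regions, all of 451 bases and 4 of them inside the gene, the nearest 0.24 kb from an end. The keratin gene Krt19 and the ETS factor gene Elk4 had 143-base regions at 0.134 and 0.384 kb.

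By number of regions, Iqgap2 was followed by the cell cycle kinase gene Cdk6 with 6, the lipid phosphatase gene Inpp4b with 5, and Ell2, Hpgd and Krt19 with 4 each. Abhd2, Ankh (listed as Ank), Mak, Stk39 and Tpd52 had 3. These counts were not adjusted for gene length. Inpp4b spans 792 kb, Iqgap2 265 kb, Stk39 262 kb and Cdk6 190 kb, beside the list median of 36.5 kb. Hpgd (26.5 kb) and Krt19 (5.12 kb) are shorter than that median. As at Steap4 and Mme, the regions of Iqgap2 and Mak were of 1 width only, while Cdk6 had 2 of 451 bases and 4 of 143 bases. All 4 regions of Ell2 and of Krt19 were 143 bases wide.

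Relatives of the 9 genes were counted as well. Across the 9 families 37 of 56 relatives had a region under the same rule (66.1%). The share was 42.7% over all protein-coding genes and 52.7% over those with a span of at least 21.7 kb. Families differ in gene length, and relatives that lie side by side can share regions. All 3 relatives of Steap4 did, among them Steap2, with a 451-base region 0.579 kb inside an end of the gene and 3 further regions, and Steap3, with a region inside. Of the 9 relatives of Abcc4, 8 had a region, and Abcc1, Abcc3, Abcc5 and Abcc8 had 1 or more inside. Of the 8 relatives of Nedd4l, 5 had regions, with some inside Nedd4, Smurf1 and Hecw2.

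Of the other families, the counts were as follows. For Mme 4 of 6 relatives had a region (inside Ece1 and Kel), for Tmprss2 6 of 11 (inside St14), for Fkbp5 6 of 11 (inside Fkbp9), for Tsc22d3 3 of 3, for Sgk1 1 of 2 (Sgk3, with 1 of 4 inside) and for Ndrg1 1 of 3 (Ndrg2, with 5 regions of 143 bases, none inside).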

How the data were processed

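ATAC-seq libraries from sorted basal prostate cells (3 naive, 3 inflamed) were represented by the single merged list that the authors deposited, 6502 rows of chromosome, start and end. Per the submitters' processing notes, BWA 0.7.17-r1188, SAMtools, HOMER 4.8 and edgeR were used on mm10. Apart from what the deposited name of the list abbreviates, their order and thresholds are not given in the sources used here. The depth per library is unknown, and no test between groups could be fitted.

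Starts, counted from 0 in the list, were converted to count from 1. Gene spans and 32851 promoter windows came from RefSeq tables of GRCm38.p6, which has the primary chromosomes of mm10. The analysis used Python 3.11.15, pandas 2.3.3 and numpy 2.4.6. A region counted for every protein-coding gene whose span, widened by 100 kb, held its centre. All 9 genes matched by symbol, and 7 had promoter windows (not Nedd4l or Ndrg1). Motifs were searched on both strands. Counts were checked on 400 simulated positions against a plain search, with equal results for all 21887 genes.

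The genes and lists were chosen with earlier results of these data known. Named genes were all 9, the nearest genes of their regions, list genes with a region within 1 kb of a span end or among the 10 with most regions (ties kept), and relatives with a region inside. A gene that this rule selects is not reported here. Ndrg2 and the genes of the glucocorticoid and marker lists were named after their values were seen. Alternatives were other windows, any overlap, each width, the nearest gene and merging.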

Additional observations from a re-analysis of the deposited data

How the results depend on the processing

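No paired analysis was possible because the deposited rows carry coordinates alone, and for the same reason no library could be left out. Of the 9 genes, 7 kept a region with a 50 kb window (Sgk1 lost its 2), beside 29.7% of all protein-coding genes, and all 9 had at least 1 with 250 kb, beside 65.8%, where Fkbp5 gained the region at Ppard. Counting inside spans only gave 3 genes with 7 regions, and 25 of the 92 list genes, beside 10.2% of all genes. Regions of 451 bases alone gave 7 of the 9 genes with 11 regions and 30 list genes, beside 19.7% of all genes. Narrower ones gave 4 genes with 10 regions and 39 list genes, beside 29.0%. A 250 kb window gave 32 regions at the 9 genes. Giving each region to its nearest gene left 35 list genes, beside 16.9% of all genes. Fewer regions enter under each narrower rule by construction. Counting any overlapping base, or merging regions within 1 kb, left the 8 genes and 21 regions as they were. Allowing 1 mismatch in place of 2 left 1 of the 17 windows with an androgen response element, that of Sgk1. The share among genes of at least the shortest span, and the NF-kB-like motif, were chosen after the data were seen.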

Other observations

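Genes known as glucocorticoid-induced or tied to glucocorticoid action were counted as a further list of 14, which shares Sgk1, Tsc22d3 and Fkbp5 with the 9 genes. Of the 14, 7 had a region under the 100 kb rule (50.0%), beside 42.7% of all protein-coding genes. Dusp1, a phosphatase gene that shuts off MAP kinases, had 3 regions of 143 bases, the nearest 0.346 kb from an end of the gene. Hsd11b1, whose enzyme regenerates active glucocorticoid, had 3 regions, 1 of them inside the gene. Klf9, a transcription factor gene, had a 451-base region inside, and Nfkbia and Cebpd had a 451-base region each, 10.6 and 24.1 kb away. Like Fkbp5, the genes Per1, Zbtb16, Errfi1, Cdkn1a, Mt1 and Mt2 had none, and their closest regions were 127 kb (Per1) to 309 kb (Errfi1) away.

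Markers of the sorted cells and of the cells the gate should leave out were counted as well. A region lay inside or within 100 kb of 4 of 5 basal markers (Krt5, Krt14, Trp63 and Ly6a, not Itga6), 1 of 4 luminal markers (Pbsn), 1 of 3 leukocyte markers (Ptprc) and 2 of 3 endothelial markers (Pecam1 and Cdh5), beside 42.7% of all protein-coding genes. With regions given to the nearest protein-coding gene only, 2 basal, 0 luminal, 1 leukocyte and 1 endothelial marker had a region, beside 16.9% of all genes. Trp63 alone had a region inside its span. With so few genes a list, differences between these lists were not tested. The list holds no levels, so these counts do not check the identity of the sorted cells.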
